A study of Mus musculus with 12 samples.

Results

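Rescue with the exon-3-lacking isoform of Sap30bp was compared with Sap30bp knockdown in N2a mouse neuroblastoma cells. The comparison took the libraries labelled as knockdown and as rescue of the line that carries the isoform without exon 3, which are 4 of the 12 libraries of the series, 2 in each group. N2a is a mouse neuroblastoma line, here in a Flp-In rtTA form, which carries a FLAG-tagged Sap30bp cDNA that doxycycline switches on. The knockdown cells received an siRNA against Sap30bp and no doxycycline, and the rescue cells received the same siRNA with doxycycline in the medium from 24 hours after transfection. Both were harvested at 72 hours, as were the control cells, which received a non-targeting siRNA pool and no doxycycline. A second line, used below for comparison, carries the cDNA with exon 3 and was treated in the same ways. Doxycycline was never given with the non-targeting siRNA, so the effects of drug and isoform cannot be told apart, and neither can isoform and line. The induced cDNA is described by the submitters as resistant to the siRNA. Wells of 1 condition were combined before RNA extraction, and the labels do not say whether a line is 1 clone.

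SAP30BP is a nuclear protein that works with the splicing factor RBM17 in the removal of short introns, where the usual recognition of the polypyrimidine tract by U2AF is weak. An intron that is not removed stays in the polyadenylated RNA and is counted as retained, and a cassette exon that is not recognised is skipped. Exon 3 of Sap30bp is itself a cassette exon, so the gene makes proteins with and without the residues it codes for. The question put to these libraries was how far the isoform without exon 3, given back to depleted cells, moves splicing and gene levels away from the knockdown state.

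The sequences below show the exon that separates the isoforms and examples of the introns and exons that the results turn on. They were taken from GENCODE M21 transcripts on GRCm38 and are written 5′ to 3′ on the strand of the gene. Capitals mark a whole cassette exon between 24 bases of its neighbouring exons, or the first and last 2 bases of an intron. Exon 3 of Sap30bp (chr11:115938010-115938057, plus strand) is 48 nt long, the length of 16 codons. The 73 nt exon of Ccnl1 (chr3:65955204-65955276, minus strand) is not a multiple of 3.
Sap30bp exon 3: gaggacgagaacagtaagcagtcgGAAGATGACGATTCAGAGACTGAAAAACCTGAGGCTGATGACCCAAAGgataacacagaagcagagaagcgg
Ccnl1 exon: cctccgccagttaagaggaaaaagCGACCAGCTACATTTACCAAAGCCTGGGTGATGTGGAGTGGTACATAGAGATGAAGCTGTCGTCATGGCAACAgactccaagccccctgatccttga
Cpsf1 intron: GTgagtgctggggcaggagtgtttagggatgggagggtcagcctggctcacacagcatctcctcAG
Mfsd10 intron: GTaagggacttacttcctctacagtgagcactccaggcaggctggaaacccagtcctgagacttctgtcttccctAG
H2-Ke6 intron: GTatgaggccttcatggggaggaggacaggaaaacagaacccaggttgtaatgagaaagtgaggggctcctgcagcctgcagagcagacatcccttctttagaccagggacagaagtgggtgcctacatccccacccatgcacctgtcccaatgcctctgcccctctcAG
Lmf2 intron: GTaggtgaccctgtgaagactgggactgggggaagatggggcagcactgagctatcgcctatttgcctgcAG
Hirip3 intron: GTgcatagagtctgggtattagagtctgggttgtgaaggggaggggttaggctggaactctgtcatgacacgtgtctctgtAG
Ppp1r16a intron: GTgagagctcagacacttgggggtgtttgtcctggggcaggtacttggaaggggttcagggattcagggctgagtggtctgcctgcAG
9430015G10Rik intron: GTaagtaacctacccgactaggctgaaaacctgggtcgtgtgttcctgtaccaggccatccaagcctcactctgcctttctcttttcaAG
The Cpsf1 intron (chr15:76596350-76596415, minus strand) is 66 nt, the Mfsd10 intron (chr5:34634514-34634590, minus strand) 77 nt and the H2-Ke6 intron (chr17:34026226-34026395, minus strand) 170 nt long. The Lmf2 intron (chr15:89352787-89352858, minus strand) is 72 nt and the Hirip3 intron (chr7:126862517-126862599, plus strand) 83 nt. The remaining introns are shown for contrast. The Ppp1r16a intron (chr15:76693139-76693226, plus strand, 88 nt) differed little between knockdown and rescue, and the 9430015G10Rik intron (chr4:156124002-156124091, plus strand, 90 nt) was retained more after rescue.

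Splicing was measured in each library as percent spliced in (PSI), the share in percent of transcripts with the exon, splice site or retained intron in question, with events annotated on mm9. Between 182904 and 207284 events had a value per library, and the read depth behind a value is unknown. The median absolute difference between replicates was 2.42 points in the knockdown and 2.25 points in the rescue group. Retention over all introns tested stood higher in the library numbered 2 than in the library numbered 1 in every group, with medians of 4.19% and 5.95% after knockdown and 2.83% and 4.49% after rescue. Gene levels came as 1 RPKM per group in the authors' deposited table. Of 15 adrenergic neuroblastoma markers in the authors' deposited table, 13 stood at 1 RPKM or more in control, knockdown and rescue, with sums of 1428, 1349 and 1558 RPKM, while Th, the rate-limiting enzyme of catecholamine synthesis, was at 0.46 to 0.52 RPKM. Of 10 fibroblast markers in the authors' deposited table, 1 reached that level, Fbln1 at 156.0, 78.1 and 95.0 RPKM, and Col3a1 and Fap were listed at 0. The 10 glial and immune markers in the authors' deposited table summed to 10.7, 10.5 and 9.16 RPKM.

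Sap30bp itself showed the exchange of isoforms, which the design built in, since the induced cDNA lacks exon 3. Exon 3 was included in 74.3% and 67.9% of Sap30bp transcripts in the knockdown libraries and in 11.7% and 5.87% in the rescue libraries (mm9 chromosome 11, 115799324 to 115799371). The groups are far apart, and the control libraries stood above both, at 90.9% and 89.98%. Exon 3 inclusion fell by 62.3 points on rescue (SE 3.01, limma with Benjamini-Hochberg adjusted p = 9.56e-06). In the exon-3-containing line the same exon was at 96.3% and 96.8% after knockdown and 98.8% and 99.2% after rescue, and the rescue effect differed between the lines by -64.8 points (limma with Benjamini-Hochberg adjusted p = 0.000261). In the authors' deposited table Sap30bp stood at 40.03 RPKM in control, 21.7 in knockdown and 196.5 in rescue, with a log2 fold change of rescue against knockdown of 2.05 (edgeR, FDR 6.86e-19). The deposited fold change is smaller than the ratio of these RPKM values, and how the authors made each from the replicates is not given in the labels. These were bulk libraries, in which fewer cells of a type and less RNA per cell cannot be told apart. Rbm17, the partner in splicing, was at 102.2, 117.1 and 104.99 RPKM in the authors' deposited table (log2 fold change -0.08, FDR 1.0). A fit of the 4 knockdown and rescue libraries alone gave exon 3 an adjusted p of 0.0859 with the same difference.

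**Figure D1:**
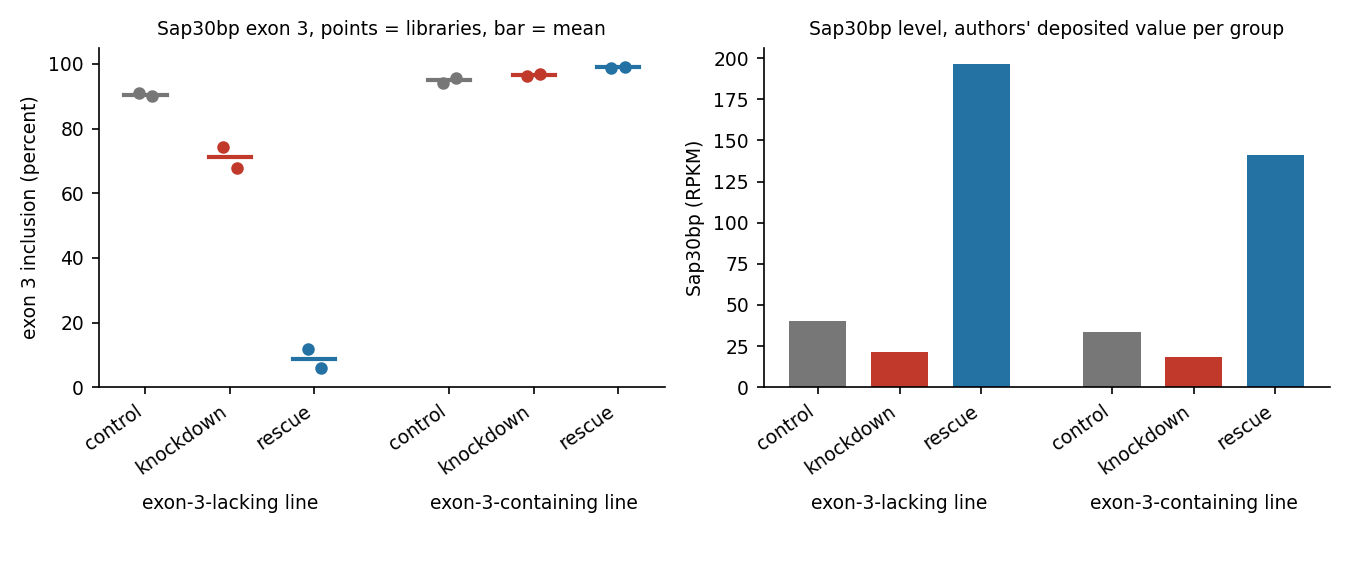
Inclusion of Sap30bp exon 3 in percent (left; points are libraries, bars group means) and the authors' deposited Sap30bp level in RPKM (right; 1 value per group, no error available). Mean inclusion after rescue was 8.78% in the line without exon 3 and 99% in the line with it, while the Sap30bp level was highest after rescue in both.

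Exon 3 of Sap30bp was the only event of 28980 tested that passed limma with a Benjamini-Hochberg adjusted p under 0.05 and at least 15 points (0.00345%). The induced cDNA lacks this exon, so its call was built into the design, and no other event passed. An unadjusted p under 0.05 was reached by 2485 events (8.57%). The next lowest adjusted p was 0.164. This count rested on 1 library, since 23 events passed without knockdown replicate 1, of which 17 were introns retained less after rescue, and 1 passed without any other of the 12 libraries. All other events are therefore described by their values.

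Introns leaned to lower retention after rescue. Of 17096 introns, 12690 (74.2%) lay below their knockdown level, with a median difference of -1.38 points, and 32.8% were lower in both rescue libraries than in both knockdown libraries against 5.5% that were higher in both. At an unadjusted p under 0.05 there were 1672 introns lower (9.78%) and 95 higher (0.556%). Cassette exons showed no such lean, with a median difference of 0.03 points, 18.3% lower and 19.5% higher without overlap. An unadjusted p under 0.05 was reached by 2.86% of exons toward lower and 4.13% toward higher inclusion, and 0.416% and 0.445% differed by 15 points or more in these directions. The median over all introns was -0.48 points without knockdown replicate 2 and -2.12 without knockdown replicate 1, and between libraries of the same number it was -1.35 and -1.38 points. Without rescue replicate 1 it was -0.695 points and without rescue replicate 2 it was -2.27. Control libraries of the exon-3-lacking line had medians of 3.66% and 4.83% over all introns. Those of the rescue libraries, 2.83% and 4.49%, overlapped with control and with knockdown. By group means rescue lay below control in 10554 introns and above it in 6532. These counts take in introns that did not fall from knockdown. In the exon-3-containing line the median difference of rescue from knockdown over the same introns was -0.24 points.

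The lean to lower retention was steepest among short introns. Of 1958 introns under 100 nt, 51.0% were lower in both rescue libraries and 2.3% higher in both, and 6.23% were lower by 15 points or more. Of 7093 introns of 1000 nt and over, 29.0% were lower and 6.2% higher without overlap, and 0.62% were lower by 15 points or more. Median retention of the introns under 100 nt was 5.63% and 8.98% in the knockdown libraries and 3.33% and 5.19% in the rescue libraries, and the rescue libraries stood below both knockdown libraries. Control libraries had 2.99% and 4.27%. For introns of 1000 nt and over, the knockdown libraries were at 3.55% and 4.92% and the rescue libraries at 2.33% and 4%. These overlap, although the rescue library was the lower one at each replicate number. Control libraries had 3.45% and 4.48% in this class. Rescue lay below control in 4938 of these introns and above it in 2153.

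**Figure D2:**
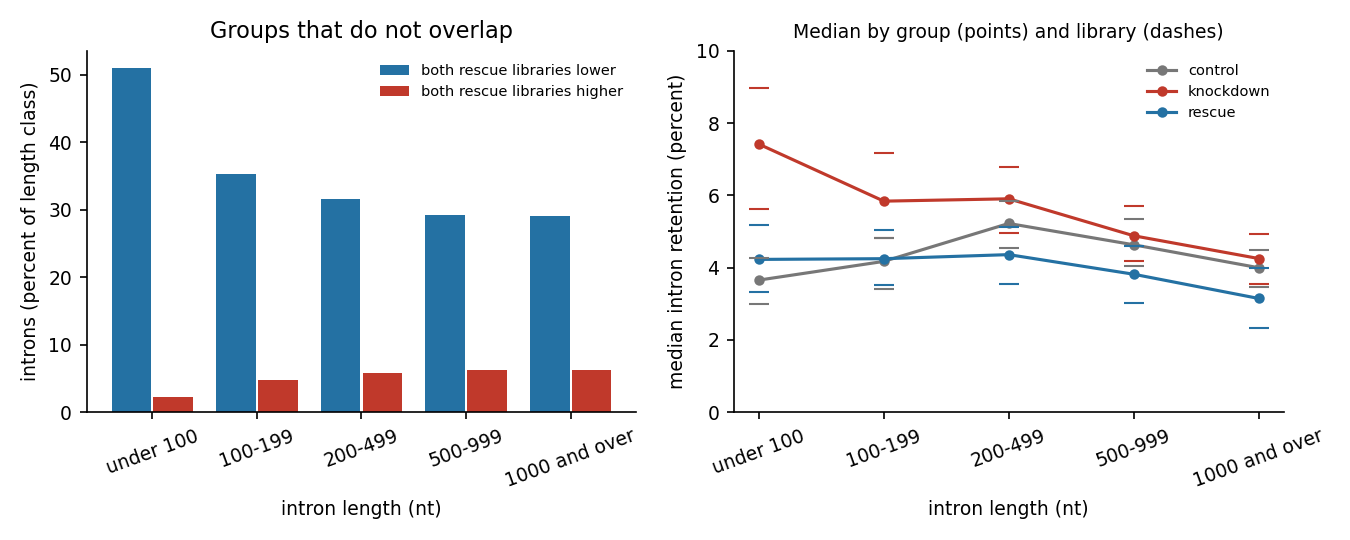
Share of introns lower (blue) or higher (red) in both rescue libraries than in both knockdown libraries, in percent of each length class (left), and median retention in percent by group (points) and library (dashes) in the exon-3-lacking line (right). The share lower without overlap is 51.0% under 100 nt and 29.0% at 1000 nt and over.

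To see what rescue did to events that depend on Sap30bp without choosing them in this line, events called on knockdown against control in the exon-3-containing line were taken (98 of 28980, 0.338%) and their values read in the exon-3-lacking line. None of the libraries described was in the contrast that chose them, although all 12 libraries share the variance of the fit. These events comprised 47 introns retained more, 34 cassette exons included less, 7 exons included more, 3 introns retained less and 7 alternative splice sites. The number of introns retained more depended on single libraries. It was 0 without either exon-3-containing control library, 6 without either exon-3-lacking control library and 10 without exon-3-containing knockdown replicate 2. It was 30 and 25 without exon-3-containing rescue replicates 1 and 2, and 26 without exon-3-lacking rescue replicate 1. It was 80 and 82 without exon-3-lacking knockdown replicates 1 and 2, and 154 with the replicate number as a block.

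The 47 introns retained more lay nearer to control after rescue than after knockdown. Their median retention in the exon-3-lacking line was 8.33% and 10.3% in the control libraries, 30.9% and 37.3% in the knockdown libraries and 13.3% and 16.4% in the rescue libraries. All 47 lay below their knockdown mean after rescue, 42 (89.4%) without overlap of the groups against 32.8% of all introns. Of the 47, 38 (80.9%) had an unadjusted p under 0.05, beside 9.78% of all introns toward lower retention. None had an adjusted p under 0.05 by limma. The median difference was -17.0 points with quartiles of -22.2 and -12.0, against -1.38 for all introns. Rescue ended within 5 points of control in 26 of them and above control in 41, and the median difference from control over the 47 was 3.92 points. With the introns held fixed, the median was -13.3 points without knockdown replicate 2 and -20.5 without knockdown replicate 1, and with the introns chosen anew it was -9.5 without exon-3-containing knockdown replicate 1 and -10.7 without exon-3-lacking knockdown replicate 2.

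The 8 introns with the largest rise on knockdown in the exon-3-containing line show the range. The 115 nt intron of Slc26a10, an anion transporter of the SLC26 family, was retained at 58.5% and 42.9% in the knockdown libraries and at 13.3% and 10.7% in the rescue libraries (mm9 chromosome 10, 126611225 to 126611339). Control libraries had 5.51% and 6.06%, and knockdown and rescue did not overlap. The 77 nt intron of Mfsd10, a membrane transporter, was at 41.9% and 52.6% after knockdown and at 20% and 21.6% after rescue, against 1.20% and 15.4% in control. The 66 nt intron of Cpsf1, the largest subunit of the complex that recognises the polyadenylation signal, was at 39.6% and 52.1% after knockdown and 18.8% and 28.8% after rescue. Neither of these pairs of groups overlapped, and rescue stayed above the control mean in both.

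Pan2 and Skiv2l code for RNA decay factors. In Pan2, a nuclease that shortens poly(A) tails, a 141 nt intron was at 42.2% and 68.4% after knockdown and 25.6% and 29.0% after rescue. In Skiv2l, the helicase of the SKI complex that feeds RNA to the exosome, a 348 nt intron was at 50.1% and 69.7% after knockdown and 31.0% and 49.6% after rescue. Both were lower without overlap, although in Skiv2l the higher rescue library lay just under the lower knockdown library. The 70 nt intron of Dpp7, a lysosomal dipeptidyl peptidase, was at 34.3% and 54.1% against 19.2% and 24.2%, and the 170 nt intron of H2-Ke6, a hydroxysteroid dehydrogenase gene, at 66.7% and 70.4% against 47.8% and 44%. In Map4k2, a kinase upstream of JNK, the 78 nt intron overlapped between the groups, with 45.2% and 60.9% after knockdown and 44.4% and 50% after rescue. Over these 8 introns the differences ran from -38.7 to -5.84 points, the limma adjusted p from 0.178 to 0.866.

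Of the introns whose sequence is printed above, the Lmf2 intron was at 21.4% and 29.5% after knockdown and at 4.21% and 5.26% after rescue, next to a control mean of 2.71%. The Hirip3 intron was at 33.1% and 34.0% after knockdown and at 16.0% and 12.4% after rescue, next to a control mean of 9.83%. Both were clear of overlap, whereas the Ppp1r16a intron was at 33.3% and 50.9% after knockdown and at 47.2% and 33.3% after rescue, and overlapped. Of the 20 bases from 23 to 4 before the exon, 45% are C or T in Ppp1r16a, 60% in Hirip3 and 65% in Cpsf1 and in Lmf2. The share is 75% in Mfsd10, 80% in H2-Ke6 and 90% in 9430015G10Rik. A link between this share and the response to rescue was not tested. A sequence was found for 19 of the 47 introns, and the median of this share was 70%, as it was over the 2555 tested introns with a sequence. Among introns under 100 nt it was 65% for the 9 chosen ones with a sequence and 75% for all 604. All 19 began with GT or GC and ended with AG. They held a median of 56.4% G and C, against 52.8% over the 2555 and 57.4% over the 604 under 100 nt, and 28 of the 47 introns were themselves under 100 nt.

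**Figure D3:**
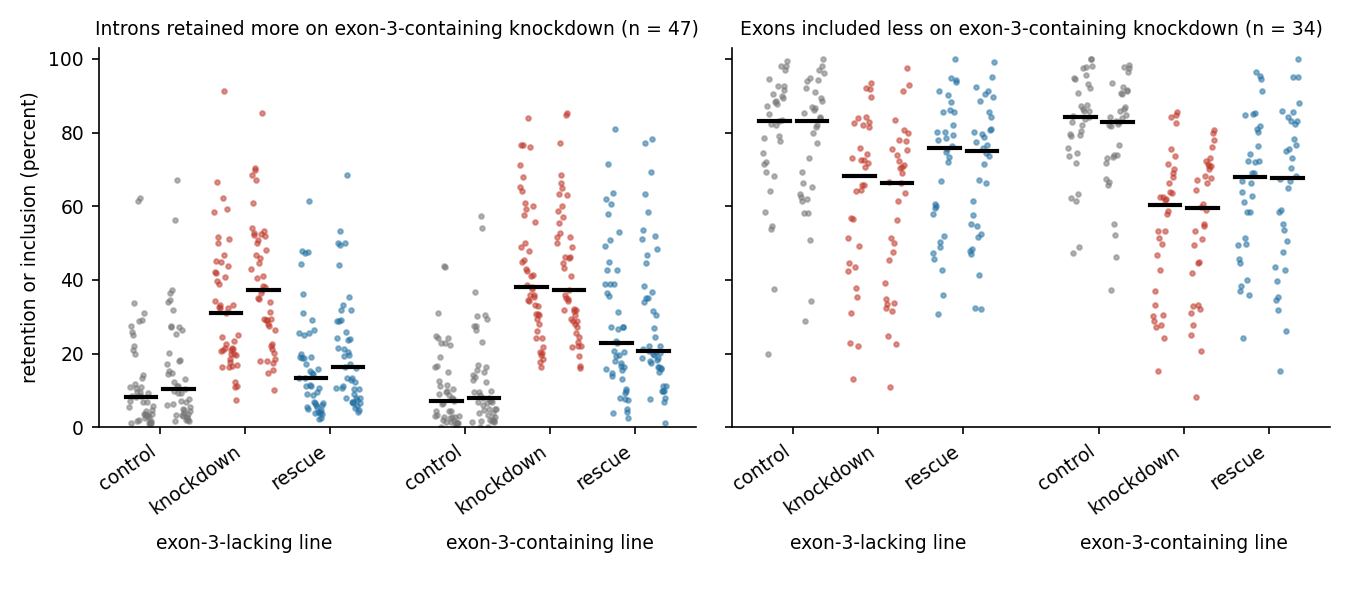
Retention of the 47 introns (left) and inclusion of the 34 exons (right) chosen on knockdown in the exon-3-containing line, in percent, for both libraries of each group (coloured points are events, black bars library medians). The intron medians of the line without exon 3 are 30.9% and 37.3% after knockdown and 13.3% and 16.4% after rescue. The exon-3-containing line chose the events, so its control and knockdown values differ by construction.

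The 34 cassette exons included less on knockdown had higher median inclusion after rescue. Their median inclusion in the exon-3-lacking line was 83.2% and 83.0% in control, 68.1% and 66.4% in knockdown and 75.9% and 75.1% in rescue. Of them, 25 (73.5%) were higher in both rescue libraries against 19.5% of all cassette exons, and none was lower in both. The median difference was 7.85 points against 0.03 for all cassette exons. An unadjusted p under 0.05 toward higher inclusion was reached by 17 (50%), beside 4.13% of all cassette exons. Rescue was within 5 points of control in 9 of the 34 and below control in 31, and the median difference from control over the 34 was -6.98 points.

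The 73 nt exon of Ccnl1 had the largest difference of these 34 exons. Cyclin L1 pairs with CDK11 and acts in splicing. Its exon was included at 72.0% and 66.4% in control, 31.1% and 24.8% in knockdown and 60.7% and 57.6% in rescue, a difference of 31.2 points (SE 4.25, limma with Benjamini-Hochberg adjusted p = 0.164). It passed with an adjusted p of 0.0362 without the filter on mean inclusion and of 0.0164 with neither trend nor robust moderation. A 115 nt exon of Obsl1, a cytoskeletal adaptor, was at 22.8% and 33.5% after knockdown and 59.7% and 48.4% after rescue. A 72 nt exon of Med25, a Mediator subunit, was at 56.6% and 51.3% against 78.1% and 77.3%, with 88.6% as the control mean. In these 3 the groups were well apart, while exons of Crtc2, Pcyt2 and Thap7 were slightly lower after rescue and overlapped, with differences of -0.98, -0.55 and -2.26 points.

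**Figure D4:**
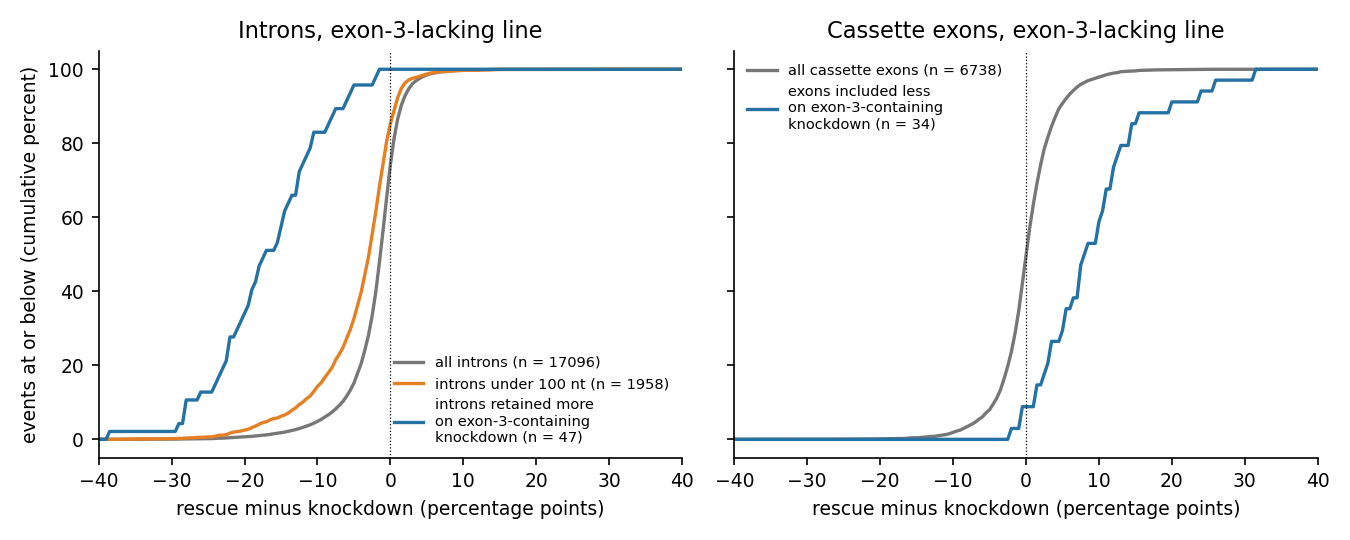
Cumulative percent of events at or below a given rescue-minus-knockdown difference, in percentage points, for introns (left) and cassette exons (right) of the exon-3-lacking line. The 47 chosen introns lie left of all introns (median -17.0 against -1.38 points) and the 34 chosen exons right of all exons (7.85 against 0.03).

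Of the 7 exons included more on knockdown, 3 were lower in both rescue libraries (42.9%, beside 18.3% of all cassette exons) and 1 was higher (14.3%, beside 19.5%), with a median difference of -3.31 points. A 120 nt exon of Ext2, a heparan sulfate polymerase, was at 41.9% and 35.2% after knockdown and 17.3% and 20.6% after rescue, near its control values of 23.2% and 19.2%. A 21 nt microexon of Dctn4, a dynactin subunit, was at 64.2% and 57.2% against 38.9% and 43.8%. Of the 3 introns retained less on knockdown, those of Prpf39 and Slc4a8 overlapped between knockdown and rescue, with differences of -0.18 and -3.03 points, and that of Fam120c was higher after rescue in both libraries, by 6.32 points. After rescue their retention lay below control in all 3, with a median difference of -16.4 points. Of the 7 alternative splice sites, 2 were lower and 3 higher without overlap, beside 17.6% and 18.5% of all 3′ sites and 18.4% and 16.1% of all 5′ sites.

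Among introns lower after rescue by at least 15 points, those of Dapk1, Lrdd and Birc2 had the lowest p. The 158 nt intron of Dapk1, a death-associated kinase, was at 19.5% and 20.2% after knockdown and 4.85% and 4.76% after rescue. The 110 nt intron of Lrdd, which codes for the PIDD scaffold of caspase-2 activation, was at 35.1% and 45.2% against 10.2% and 10.8%. The 77 nt intron of Birc2, the ubiquitin ligase cIAP1, was at 36% and 32% against 12.5% and 13.7%. None overlapped, and none passed the adjusted threshold (limma with Benjamini-Hochberg adjusted p = 0.164 for each). Without the filter on mean retention Dapk1 and Birc2 passed, with adjusted p of 0.0122 and 0.0362. The Dapk1 intron also belongs to the 47 above.

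Few introns were retained more after rescue. Only 9 of 17096 (0.0526%) were higher by at least 15 points, against 306 (1.79%) lower. The 90 nt intron of 9430015G10Rik was at 51.2% and 56.9% after knockdown and 89.3% and 76.5% after rescue, above its control values of 59.9% and 57.7%. An 813 nt intron of Bin1, a membrane-bending adaptor, was at 46.6% and 53.7% against 68.1% and 64.7%, and a 218 nt intron of Ccdc52 at 5.98% and 12.1% against 26.9% and 25.4%. In the Bin1 intron rescue stood near the control values of 70.8% and 68.0%. These 3 had limma adjusted p from 0.215 to 0.464 and did not pass.

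Among exons higher after rescue by at least 15 points, those with the next lowest p after Ccnl1 were in Zfp532, a zinc finger gene, and Melk, a mitotic kinase. The 282 nt exon of Zfp532 was at 64.8% and 64.9% after knockdown and 82.9% and 87.3% after rescue. In the exon-3-containing line this exon differed by -7.49 points between rescue and knockdown. The 69 nt exon of Melk was at 74.1% and 79.0% against 91.1% and 92.8%, and the exon-3-containing line gave 15.4 points. Less included after rescue was a 117 nt exon of Crtc1, a coactivator of CREB, at 80.9% and 76.7% after knockdown and 53.8% and 45.4% after rescue. Its control libraries had 74.2% and 63.1%, so rescue lay below control as well.

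Alternative splice sites were used differently by 15 points or more in few genes. A 3′ site of 34 nt in 2810403A07Rik was used at 46.2% and 36.9% after knockdown and 67.2% and 66.7% after rescue, next to 70.1% and 60.2% in control. A 3′ site of 71 nt in Tmem181b-ps was used at 76.5% and 63.9% against 89.1% and 87.1%. A 3′ site of 3 nt in Rev1, a translesion polymerase, was used at 70.8% and 73.3% against 50.01% and 63.2%. At 5′ sites, Zbtb45 was also lower after rescue than in knockdown and control, with 68.4% and 59.7% after knockdown, 32.9% and 41.9% after rescue and 67.4% and 69.1% in control. Cstf1, a cleavage stimulation factor subunit, used a 5′ site at 39.9% and 44.9% after knockdown and 59.2% and 61.2% after rescue. Fbxo44, an F-box protein, used one at 32.9% and 29.4% against 54.2% and 59.1%. All 6 were free of overlap and none passed the limma threshold, the lowest adjusted p being 0.164.

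The authors' deposited table of splicing calls lists 405 calls for rescue against knockdown among its 2175 events (18.6%), each of at least 15 points. Introns with lower retention made up 303 calls of the authors' deposited table (23.5% of its introns), in 233 genes, and 16 were introns with higher retention (1.24%). Of those 303 introns in the authors' deposited table, 134 were under 100 nt and the median length was 155 nt. Cassette exons in the authors' deposited table were divided between 37 higher (5.61%) and 27 lower calls (4.1%), and 3 microexons were lower (7.32%). Of all 405, 216 from the authors' deposited table entered the limma fit and 209 of these had an unadjusted p under 0.05. The calls were made on the same libraries, so these low p-values are no separate evidence. By limma, 1 of the 216 had an adjusted p under 0.05. For the line with exon 3, 152 calls stand in the authors' deposited table, and 78 are introns with lower retention.

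Several genes held many such introns. Their counts stand beside the 32.8% of all introns that were lower without overlap. Genes with at least 4 introns called as retained more on exon-3-containing knockdown in the authors' deposited table were taken, and all their tested introns were read in the exon-3-lacking line. In Dgat1, which makes triglycerides, all 9 tested introns lay lower after rescue, 6 without overlap, with medians of 11.9% in control, 46.7% in knockdown and 20.01% in rescue. In Rec8, a cohesin subunit of meiosis, 13 of 17 were lower without overlap, with medians of 7.6%, 14.2% and 7.53%. In Cpsf1 10 of 12 were lower without overlap, with medians of 3.61%, 12.9% and 5.78%, and in Dpp7 8 of 11, with 12.0%, 31.4% and 20.3%. In Map4k2 3 of 17 were lower without overlap, a smaller share than over all introns, and 11 lay below knockdown. In Plxna3, which like Dgat1 had 9 such calls, 9 of 25 were lower without overlap, near the share over all introns. In Gtpbp2 it was 3 of 9, in Abca7 13 of 31 and in Plcg1 7 of 15. The genes named are a part of those taken and were chosen after their values were seen. All 4 tested introns of Hirip3 and all 4 of Lime1, a lymphocyte adaptor, were lower without overlap.

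Among genes on the lists used, single events differed by 10 points or more with an unadjusted p under 0.05, without passing the limma adjusted threshold. Introns of the splicing kinases Clk1 and Clk4 had mean retention of 18.7% and 21.7% after knockdown and 8.14% and 7.6% after rescue. In Clk1 the groups nearly touched, with 14.9% and 22.6% in the knockdown libraries and 3.17% and 13.1% in the rescue libraries. A 73 nt exon of Hnrnpa2b1 was included at 61.8% after knockdown and 36.8% after rescue, against 54.9% in control. A 120 nt exon of Prpf8, the core of the spliceosome, had mean inclusion of 100%, 87.5% and 98.8% in control, knockdown and rescue. In Pold1, the catalytic subunit of DNA polymerase delta, 3 introns of 76, 82 and 367 nt had means of 23.1%, 24.3% and 33.6% after knockdown and 8.31%, 8.14% and 14.98% after rescue. In Celsr3, a cadherin of axon guidance, introns of 537 and 558 nt had means of 50.1% and 30.2% against 20.9% and 14.2%. The libraries of the 558 nt intron had 36.5% and 23.9% after knockdown and 6.71% and 21.6% after rescue. Of all 66 tested introns of core spliceosome genes, 28.8% were lower without overlap, and of 87 in DNA replication genes 41.4%, beside 32.8% of all introns.

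Whether the rescue effect differed between isoforms was tested as the difference of the rescue-minus-knockdown differences of the lines. One of 28980 events passed limma at a Benjamini-Hochberg adjusted p under 0.05 and 15 points (0.00345%), exon 3 of Sap30bp. The induced cDNAs of the lines differ in this exon by design, and no other event passed. An unadjusted p under 0.05 was reached by 1528 events (5.27%). Over the 47 introns the median difference between lines was -2.25 points, with 28 lower by more in the exon-3-lacking line and 19 by more in the other. Over all 17096 introns the median was -1.195 points, with 11344 lower by more in the exon-3-lacking line and 5749 by more in the other. The count among the 47 thus did not stand above that over all introns. Of the 47, 6 had an unadjusted p under 0.05, beside 5.15% of all introns, 4 of them toward lower retention in the exon-3-lacking line, and the lowest limma adjusted p was 0.830. In H2-Ke6 and Dcaf15, a substrate receptor of a ubiquitin ligase, the difference between lines was -20.02 and -22.3 points, and in Pkd1, the polycystin 1 gene, it was 23.2 points. The Pkd1 intron of 82 nt was at 16.5% and 17.95% after knockdown and at 5.56% and 16.4% after rescue in the line without exon 3. The medians of the exon-3-containing line for the 47 introns were 38.03% after knockdown and 23.8% after rescue. Those knockdown values chose the introns, so their differences between lines are a description.

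Gene levels differed at few places. Of 21541 genes with a test in the authors' deposited table, 5 had an FDR under 0.05 for rescue against knockdown (edgeR, 0.0232%). Of these 1 was higher (0.00464%) and 4 lower (0.0186%). At an unadjusted p under 0.05 there were 1289 genes (5.98%), 528 higher (2.45%) and 761 lower (3.53%). In the line with exon 3, 1 gene passed on rescue in the authors' deposited table (0.00464%). The gene higher was Sap30bp. Gm48275, a predicted gene, was at 18.1 RPKM in control, 21.4 in knockdown and listed at 0 in rescue in the authors' deposited table (edgeR FDR 2.42e-08). Zfp935, a zinc finger gene, was listed at 0 in control and rescue and at 1.52 RPKM in knockdown in the authors' deposited table (FDR 3.44e-05). Gm29609 was at 3.47 and 1.67 RPKM after knockdown and rescue (log2 fold change -2.40, larger than the RPKM ratio, FDR 9.42e-05), and Gm49116 at 356.7 and 205.7 RPKM (log2 fold change -0.93, FDR 0.0245), in the authors' deposited table. No per-library values stand behind these, so an exact 0 could not be checked against the replicates. The response to rescue differed between the lines for 2 genes, Gm48275 and Gm29609 (0.00928%, Benjamini-Hochberg adjusted difference of signed z values from edgeR p-values), and 295 genes had an unadjusted p under 0.05 for this difference (1.37%).

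The next genes by p missed the FDR. Icam2, an adhesion molecule, stood at 43.9 RPKM in control, 17.7 in knockdown and 32.7 in rescue in the authors' deposited table (log2 fold change 0.88, edgeR FDR 0.0774). Ctla2a, a cathepsin inhibitor-like gene, was at 240.0, 74.1 and 166.5 RPKM in the authors' deposited table (log2 fold change 1.18, FDR 0.127). Npat, the histone gene coactivator, was at 13.6, 25.9 and 13.7 RPKM in the authors' deposited table (FDR 0.0977), and Tet2, which oxidises 5-methylcytosine, at 16.4, 15.6 and 8.99 (FDR 0.0949). For Icam2, Ctla2a and Npat the rescue value lay between knockdown and control. Avil, an actin-binding villin relative, was at 0.58, 3.35 and 6.50 RPKM in the authors' deposited table (log2 fold change 0.95, FDR 0.0971), farther from control than knockdown.

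Genes called on knockdown in the exon-3-containing line were again read in the exon-3-lacking line. Only genes with at least 1 RPKM in exon-3-lacking knockdown or rescue were taken, a filter read in the compared groups themselves. Of 393 such genes lower on that knockdown in the authors' deposited table, 343 had a log2 fold change above 0 on exon-3-lacking rescue, with a median of 0.27. Over all genes with at least 1 RPKM, 49.3% lay above 0, with a median of -0.01. Of the 393, 56 had an unadjusted p under 0.05 toward higher, beside 2.45% of all genes, and none toward lower, beside 3.53%. None of them passed the FDR (edgeR). Of 192 such genes higher on that knockdown in the authors' deposited table, 147 had a log2 fold change below 0, with a median of -0.26. Above 0 lay 45 of the 192, beside the 49.3% of all genes with at least 1 RPKM. An unadjusted p under 0.05 was reached by 44 toward lower, beside 3.53% of all genes, and by 5 toward higher, beside 2.45%. Only 1 of the 192 passed the FDR on rescue, Gm48275. Cox6a2, a muscle-type cytochrome oxidase subunit, was at 5.35 RPKM in control, 44.8 in knockdown and 53.3 in rescue in the authors' deposited table, with a log2 fold change on rescue of 0.18 (edgeR FDR 1.0). Ier3, an immediate early survival gene, was at 48.1, 12.1 and 23.1 RPKM in the authors' deposited table (edgeR FDR 0.317), and Gchfr, the regulator of GTP cyclohydrolase, at 49.0, 17.3 and 43.7 (FDR 0.825).

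No gene that hosts one of the 47 introns passed the FDR. All 43 were tested in the authors' deposited table, with a median log2 fold change of -0.15, 17 above 0 and 26 below. An unadjusted p under 0.05 (edgeR) was found for 7, beside 5.98% of all genes. The log2 fold changes in the authors' deposited table ran from -0.96 to 0.56.

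**Figure D5:**
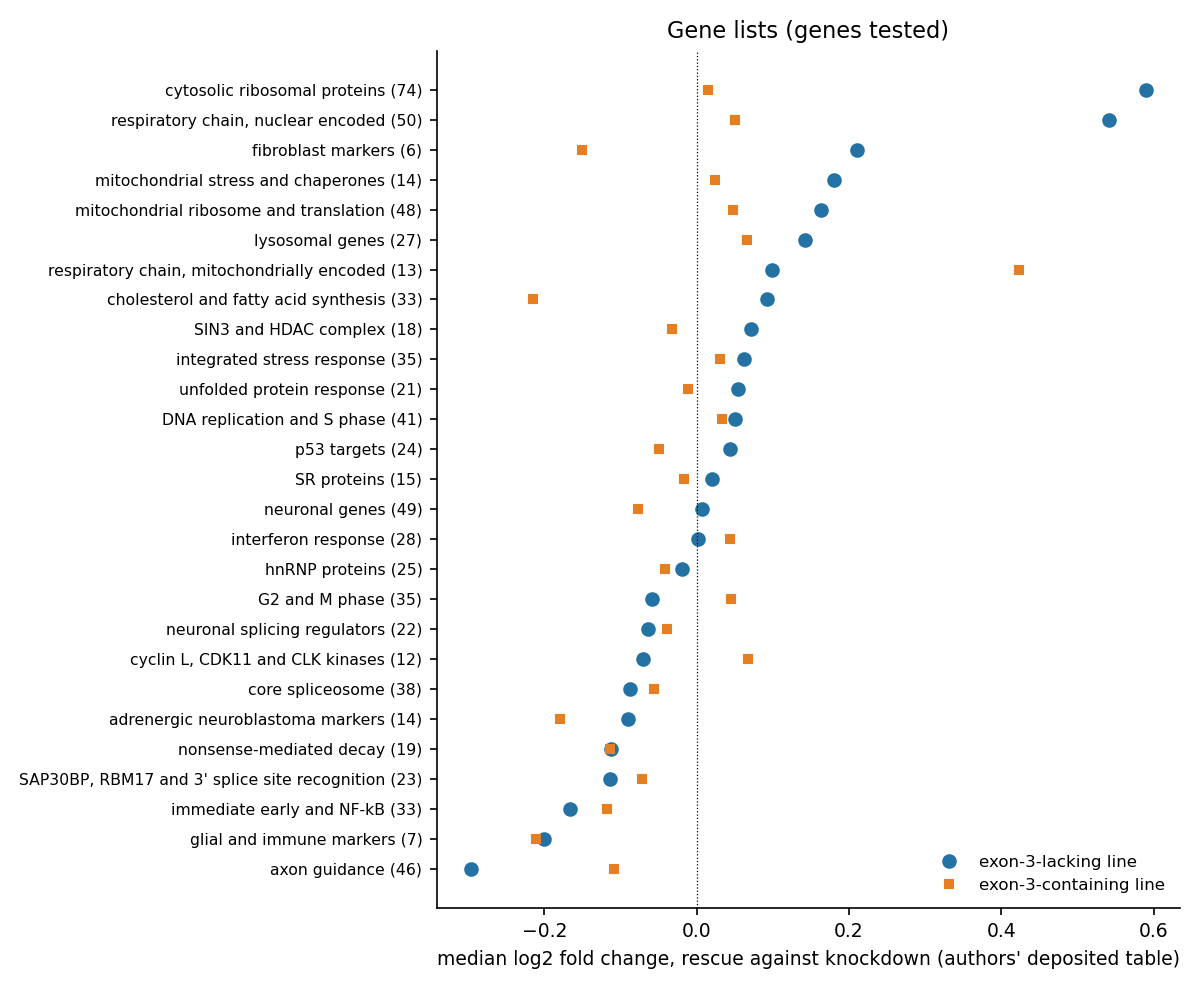
Median log2 fold change of rescue against knockdown over each gene list, from the authors' deposited table (circles, exon-3-lacking line; squares, exon-3-containing line; the number of genes tested in brackets). Cytosolic ribosomal proteins (0.59) and nuclear-encoded respiratory chain genes (0.54) lie highest and axon guidance genes (-0.30) lowest in the exon-3-lacking line.

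Gene lists held no called gene except Sap30bp itself. Of 74 cytosolic ribosomal protein genes, 72 had a log2 fold change above 0 in the authors' deposited table, with a median of 0.59 beside -0.04 for all genes, and none passed the FDR (edgeR), with 1 at an unadjusted p under 0.05. Rpl36 was at 1142 RPKM in control, 796.2 in knockdown and 1923 in rescue in the authors' deposited table (log2 fold change 1.07). All 50 nuclear-encoded respiratory chain genes lay above 0, with a median of 0.54, 6 at an unadjusted p under 0.05 and none called. Over all genes 46.3% lay above 0, and 2.45% had an unadjusted p under 0.05 toward higher. Cox6c, a subunit of complex IV, was at 602.5, 411.3 and 953.9 RPKM in the authors' deposited table. In the exon-3-containing line the medians of these lists were 0.01 and 0.05, and no gene of either list was called for a difference between the lines. Both lists hold short transcripts, with medians of 635 and 688 nt. Over genes with at least 1 RPKM in knockdown or rescue, the median log2 fold change was 0.10 under 700 nt and -0.16 over 3000 nt. It did not fall at each step, with 0.06 at 700 to 1000 nt and 0.07 at 1000 to 1500 nt. In the exon-3-containing comparison the shortest and longest class hardly differed (0.0 and -0.01). After subtraction of the median of the length class the list medians were 0.53 and 0.46. The part of transcript length in these list medians was not tested further.

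Axon guidance genes lay lower, with 11 of 46 above 0 in the authors' deposited table, a median of -0.30 and none called (edgeR). Nrp1, a semaphorin and VEGF co-receptor, was at 12.5 RPKM in control, 24.8 in knockdown and 15.5 in rescue in the authors' deposited table, and Sema6d, a transmembrane semaphorin, at 6.37, 13.6 and 8.62. Both had rescue values between knockdown and control. Of 38 core spliceosome genes 14 lay above 0 with a median of -0.09. The largest log2 fold changes among them were 0.82 for Snrpd2, 0.79 for Snrpg and -0.69 for Prpf8 in the authors' deposited table. In control, knockdown and rescue Snrpd2 was at 68.8, 65.9 and 112.7 RPKM in the authors' deposited table. Snrpg was at 129.8, 134.1 and 247.2 RPKM and Prpf8 at 54.4, 80.0 and 53.7 RPKM in the authors' deposited table. Of 27 lysosomal genes 21 lay above 0 with a median of 0.14, of 33 sterol and fatty acid synthesis genes 21 with 0.09, and of 19 genes of nonsense-mediated decay 7 with -0.11, none called. Of 23 genes of 3′ splice site recognition 8 lay above 0 with a median of -0.11, Sap30bp among them.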

How the data were processed

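The values analysed were the authors' own, for polyA RNA of N2a lines. The deposited inclusion table gives PSI in percent per event and library on mm9, per the file headers and labels. For vast-tools, neither version nor coverage rule was given in the sources used. Gene levels came from the authors' deposited table, with RPKM per group and log2 fold changes with p-values per comparison. The submitters' processing notes list edgeR and Salmon 0.14.1. The authors' deposited splicing calls give a score, the difference in points. RPKM and PSI carry no read counts, so depth is unknown.

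PSI was fitted with limma 3.58.1 in R 4.3.3, with 6 group means over 12 libraries and trended, robust moderation. Events needed a value in 12 libraries and a mean of 2% to 98%. Calls needed a Benjamini-Hochberg adjusted p under 0.05 and 15 points. Replicates are 2 per group, and the limma p-values set group differences against a moderated variance estimated over these 12 libraries. The difference between lines of gene effects used signed z values of the authors' p. Named items were exon 3 of Sap30bp, the 3 lowest p with at least 15 points per class where fewer than 3 passed, the 8 introns with the largest knockdown rise in the other line, called genes and list members with the largest fold change. Items outside this rule were chosen after their values were seen. Members, lists and rules were chosen with earlier results of these data known. The fit was tested on simulated data. Intron sequences were placed by gene, intron length and flanking exon lengths, not by converted coordinates. Alternatives are given at the end.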

Additional observations from a re-analysis of the deposited data

Results flagged for a closer look

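The rescue effect on exon 3 of Sap30bp differed between the lines by -64.8 points, by a limma test of the difference itself. The induced cDNA of 1 line lacks this exon and that of the other holds it. In the authors' deposited table, 2 genes differed between the lines in their response to rescue by the adjusted difference of signed z values (0.00928% of genes tested). For Gm48275 the authors' deposited table gives log2 fold changes of -8.98 without exon 3 and 0.06 with it; the first is a fitted value against a group listed at 0 and no measure of size (adjusted p = 0.0126 by Benjamini-Hochberg over edgeR p-values). Gm29609 had -2.40 and 0.46, in that order, in the authors' deposited table (adjusted p = 0.0218 by Benjamini-Hochberg over edgeR p-values). The level of Gm48275 in control cells in the authors' deposited table was 18.1 RPKM for the former and 1.46 RPKM for the latter line.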

How the results depend on the processing

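The 1 splicing event called became 5 without the filter on the mean percent (3 introns retained less, 1 exon included more), 6 with neither trend nor robust moderation (4 introns, 1 exon) and 0 in the fit of 4 libraries alone, where the difference of -62.3 for exon 3 of Sap30bp had an adjusted p of 0.0859. Leaving out 1 library gave 1 to 23 events, 0 to 17 introns retained less, 0 to 4 exons included more and 1 to 2 events that differ between lines, the upper ends all without exon-3-lacking knockdown replicate 1. The median over introns chosen in the other line ran from -20.9 to -9.5 points when a library was left out and the introns chosen anew, from -20.5 to -13.3 with the 47 introns fixed, and was -13.2 over the introns of the authors' deposited calls, which was added after the data were seen, as were the fixed introns. Of the events recomputed under each setting, the Map4k2 intron alone turned direction, with -13.7 to 2.03 points when a library was left out, the latter without exon-3-lacking knockdown replicate 2. Other events, the overlapping Ppp1r16a intron among them, were not recomputed singly. With the replicate number as a block within line, 1 event was called, 3355 events in place of 2485 had an unadjusted p under 0.05, and 154 introns in place of 47 were chosen in the other line, with a median of -14.2. Same-numbered libraries deviated together, with correlations of 0.042 to 0.31, all above 0, over 15 pairs of groups, but the labels do not say what a number shares and there are 2 numbers, so pairing was not assumed. The logit scale, a threshold of 10 points, values in 10 of 12 libraries and the fit of the 6 libraries of the line also gave 1 event, and genes called numbered 4 to 5 over the settings tried. Medians of the G2 and M phase, SR protein, SIN3, hnRNP, neuronal and adrenergic lists, all near 0, changed sign with RPKM ratios. A filter on coverage quality was not run, and fits without the exon-3-containing line give no median and no difference between lines. Introns chosen numbered 10 without the filter on the mean percent, 69 with neither trend nor robust moderation and 0 to 82 when a library was left out, 0 without either exon-3-containing control library. Depth is unknown, so no limit from it can be given.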

Other observations

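Inside Sap30bp, the exons of 89 nt and 92 nt (mm9 chromosome 11, 115818675 to 115818763 and 115821814 to 115821905) had an inclusion value in all 8 libraries without doxycycline and in none of the 4 with doxycycline. Of 161888 events with a value in all 8, 20 had none in the other 4, and 2 of these lie in Sap30bp. Inclusion of the 89 nt exon was 100% in both control libraries and 98.6% and 94.2% in both knockdown libraries of the exon-3-lacking line.

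Events in single genes of the interferon, lysosomal and unfolded protein response lists were not described above. A 203 nt intron of Ifi35, an interferon-induced gene, had mean retention of 30.4% after knockdown and 13.7% after rescue, and a 347 nt intron of Man2b1, lysosomal alpha-mannosidase, 46.6% and 24.9%. In Hyou1, a chaperone of the endoplasmic reticulum, use of 2 linked 5′ sites went opposite ways, from 53.5% to 28.8% and from 33.8% to 52.8%. A 119 nt exon of Dpp7 had mean inclusion of 89.6% in control, 59.2% in knockdown and 83.4% in rescue. None of these passed the limma threshold.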
